A study of Mus musculus with 2 samples.

Results

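The 10 genes described here are those of the repressing arm of the mouse circadian clock, Bhlhe40, Bhlhe41, Per1, Per2, Per3, Cry1, Cry2, Nr1d1 and Nr1d2, with the clock output gene Dbp. They were taken by name, and all 10 were found among the 21883 protein-coding genes of the gene table used. The set was chosen because Bhlhe41 had far less H3K27ac peak coverage in Gata2 KO cells than in Gata2 f/f cells, so that the coverage of Bhlhe41 is what chose the set and is given as a description. Dbp is an activator, and the name circadian repressors fits the other 9.

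The mark measured was H3K27ac, acetylated lysine 27 of histone H3, which sits at promoters and enhancers in use. It was profiled by ChIP-seq in MA9 cells, a mouse model of leukaemia in which the fusion oncogene MLL-AF9 transforms blood progenitors. There were 2 libraries, 1 of Gata2 KO (Gata2 -/-) cells and 1 of Gata2 f/f cells, which carry the floxed, undeleted gene. Leukaemia cells of primary animals, taken from the bone marrow, received Cre or the control vector MIT, were sorted for GFP and tdTomato, and spent 7 to 9 days in culture with SCF, IL-3 and IL-6. Clock genes cycle over the day in most tissues, and the time of day at which cells were collected is not given in the sources used here. With 1 library per genotype no difference below has a replicate check, and no test was possible.

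The KO list held 37234 peaks on chromosomes 1 to 19, X and Y and the f/f list 34272, with a median -log10 p of 9.41 in KO and 12.2 in f/f. These values, like the fold enrichment given for single peaks, are the authors' and rank peaks within a list only. Read depth is unknown. Gata2 had a gene-end peak in both lists, with 7.46% of its window (defined below) covered in KO and 12.2% in f/f, which does not check the deletion. Of 10 marker genes of myeloid leukaemia and progenitor cells, 6 had a gene-end peak in both lists and 4 in f/f only, of which Cd34 had no KO peak near its ends. Their windows were covered at 3.25 to 22.0% in KO and 2.40 to 25.8% in f/f. Of 7 markers of other cells, 4 had no gene-end peak, Alb had one in both lists, and Pecam1 and Epcam had one in f/f only. The libraries also differed in sex-linked marks, with a gene-end peak at Uty, Kdm5d and Eif2s3y in KO alone and at Xist in f/f alone. The part of this difference in the results was not tested. Stretches at some chromosome starts held peaks of 1 list only, and 0 of the 10 windows lay in one.

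In the mammalian clock, CLOCK and BMAL1 bind E-box elements and switch on the Per and Cry genes, whose proteins return to the nucleus and block them. The REV-ERB receptors encoded by Nr1d1 and Nr1d2 repress Bmal1 itself, and BHLHE40 and BHLHE41, also known as DEC1 and DEC2, occupy E-boxes and repress from there. DBP, switched on through E-boxes as well, binds D-box elements in other clock genes such as Per3. Many of these genes are expressed in blood cells, where Bhlhe40 and Bhlhe41 also act in cytokine and immune cell programmes.

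For each gene the window was the gene and 50 kb on both sides (mm10), and window coverage is the percent of its bases under peaks. A gene-end peak lay within 1000 bp of either end of the gene. Such a gene was counted as marked in 1 list alone where no peak of the other list came within 5000 bp of its ends.

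**Figure D1:**
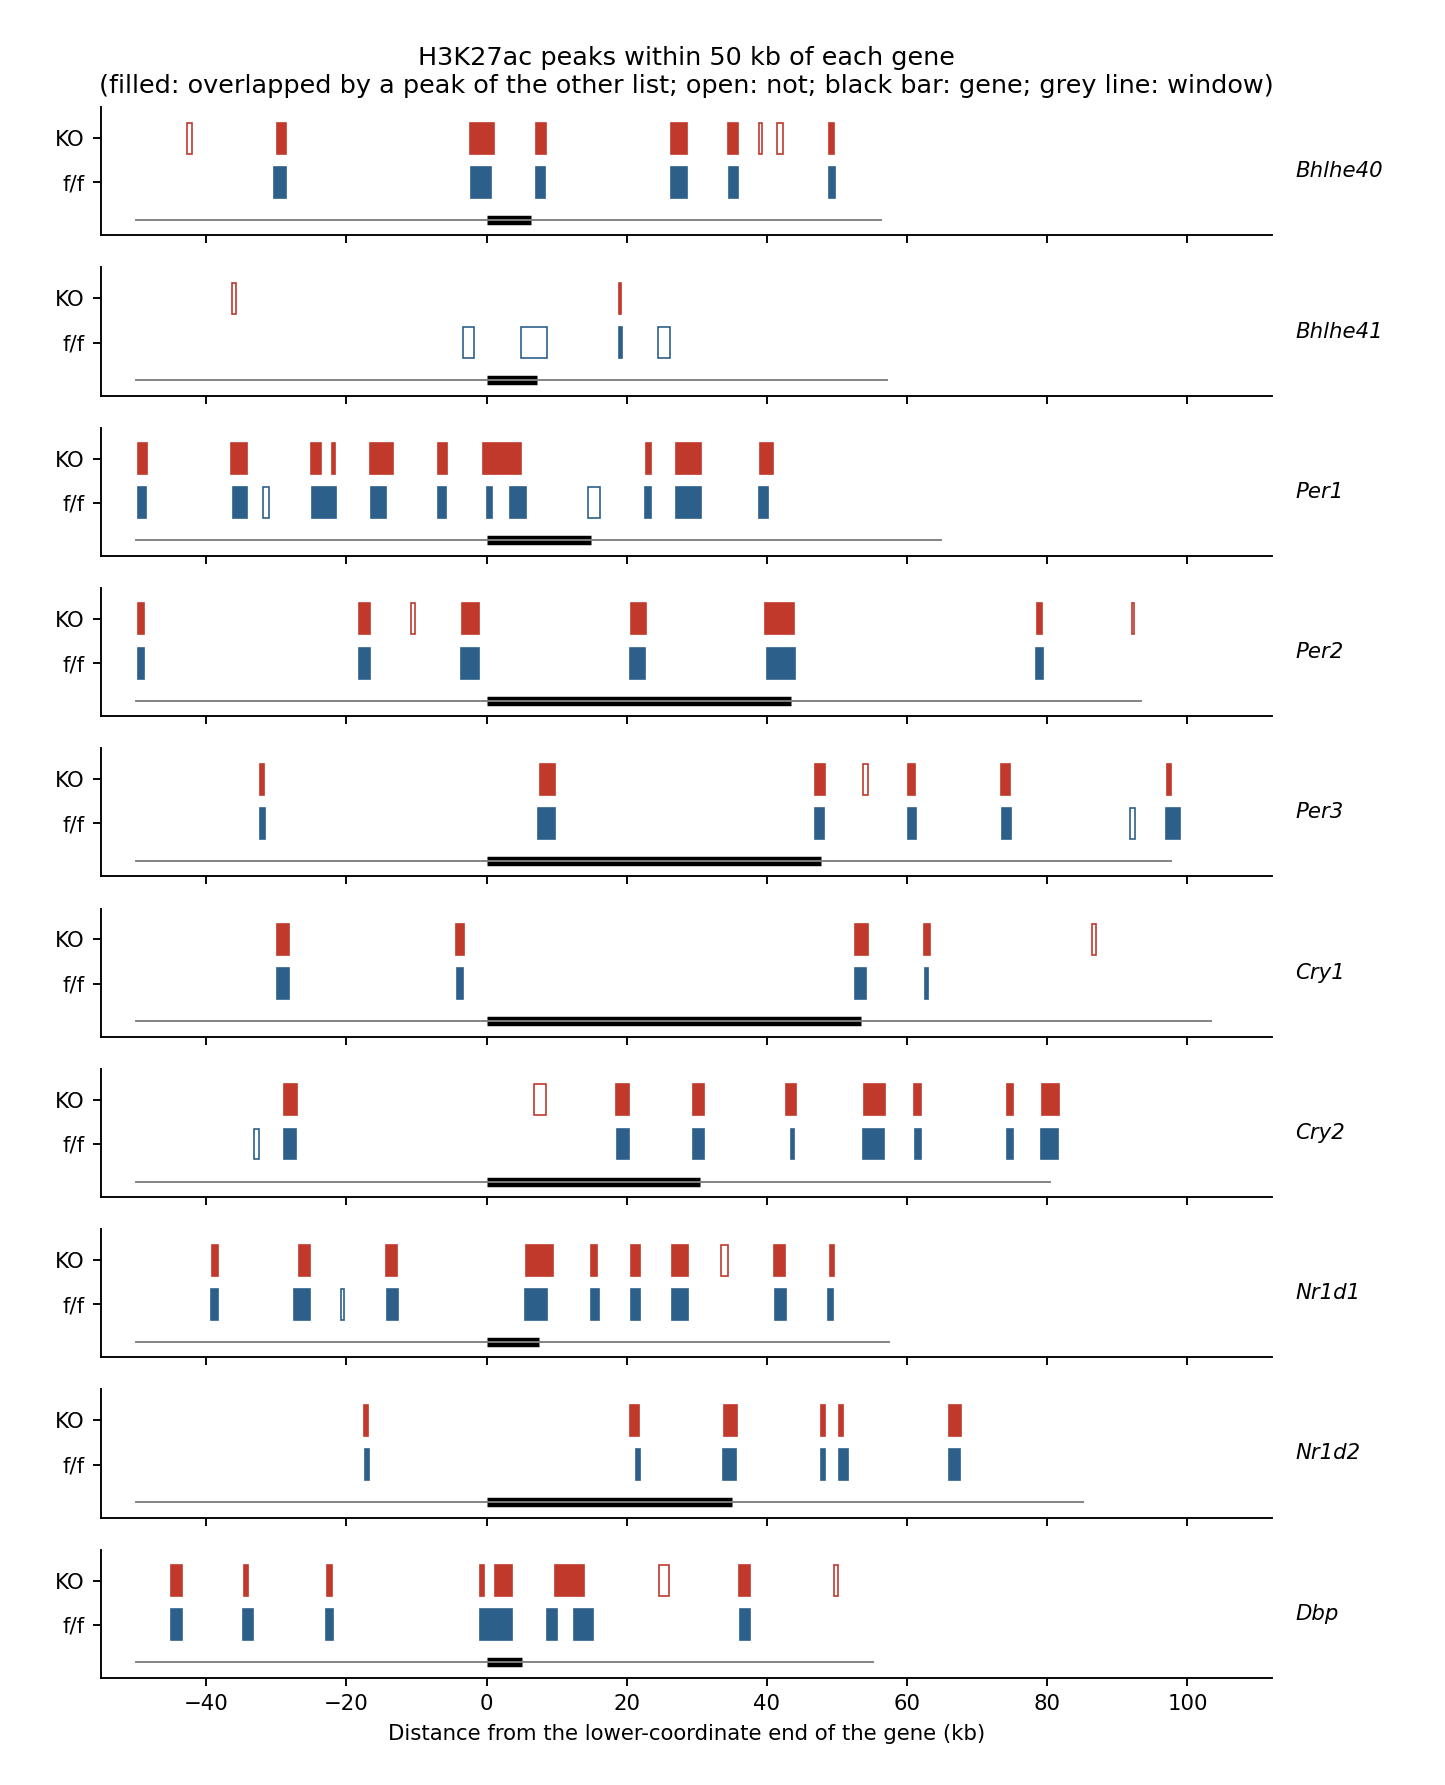
Position of every H3K27ac peak in the windows of the 10 genes, in kb from the lower-coordinate end of each gene, with the KO library above the f/f library. Filled boxes are overlapped by a peak of the other list and open boxes are not. At Bhlhe41, 3 of the 4 f/f peaks are open and 2 KO peaks remain, whereas the other 9 genes hold 5 to 10 KO peaks and 4 to 12 f/f peaks in like positions.

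Bhlhe41 (chromosome 6, 145858243 to 145865420, minus strand), which encodes the repressor BHLHE41, had no KO peak on the gene or within 10 kb of it. Its window was covered over 1046 bases in KO, in 2 peaks of mean width 523 bp, and over 7548 bases in f/f, in 4 peaks of mean width 1887 bp. That is 0.976% in KO and 7.04% in f/f, a difference of -6.07 percentage points and a ratio of 0.139. It was the only one of the 10 genes with a KO coverage at or under 0.5 times that of f/f, a call that 2.29% of all protein-coding genes met (with at least 2000 covered bases in the higher library). It was also the only one marked at a gene end in f/f alone, which held for 1.83% of all genes. As the set was chosen by this contrast, nothing is read from these shares.

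The f/f peak over the start of Bhlhe41 (145863191 to 145866829) was 3639 bp wide and covered the promoter and the first part of the gene, with a fold of 2.63 and a -log10 p of 4.99. A second f/f peak (145854837 to 145856391, 1555 bp, -log10 p 5.82) lay 1.85 kb beyond the gene's other end. The third (145882637 to 145884451, 1815 bp, -log10 p 6.03) lay 17.2 kb upstream of the gene. No KO peak overlapped these 3. All 3 were weak calls, below the f/f median -log10 p of 12.2, and among all f/f peaks below that median 29.9% had no KO overlap.

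Both libraries had a narrow peak 11.7 kb upstream of Bhlhe41, 396 bp wide in KO (145877084 to 145877479, -log10 p 4.09) and 539 bp wide in f/f (145877085 to 145877623, -log10 p 3.82). The other KO peak of the window (145821903 to 145822552, 650 bp, -log10 p 8.93) lay 35.7 kb from Bhlhe41 and 824 bp from an end of Rassf8, the only other protein-coding gene of the window. No f/f peak overlapped it. All 6 peaks of this window were thus below the median -log10 p of their own list.

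Coverage was also read by distance from the gene, where the values within 50 kb are those that chose the set. Over the first 10 kb on both sides of Bhlhe41 the coverage was 0% in KO and 14.8% in f/f, and from 10 to 50 kb it was 1.31% in KO and 2.94% in f/f. From 50 to 100 kb it was 2.05% in KO and 0% in f/f, and from 100 to 250 kb 1.52% in KO and 0.966% in f/f. From 250 to 500 kb it was 2.55% in KO and 2.37% in f/f, and from 500 to 1000 kb 5.87% in KO and 5.55% in f/f. Within 500 kb of the gene there were 21 KO peaks and 17 f/f peaks.

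The difference rests on weak f/f calls and turned when these were left out. With weak calls removed by a -log10 q minimum of 5, the Bhlhe41 window had 0.606% coverage in KO and 0% in f/f. The strongest 20000 peaks of each list gave the same values. That KO coverage was the peak of 650 bp near an end of Rassf8, 35.7 kb from Bhlhe41. Neither list then had a peak at Bhlhe41 itself. With the KO list limited to its strongest 34272 peaks, the number of the whole f/f list, the difference stayed at -6.07 points. That setting removes KO peaks only, so it could not have made the difference smaller.

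The promoter sequence of Bhlhe41 is shown because it lay under a peak in f/f and not in KO, as did that of Dbp (below). It runs from 250 bases before to 50 after the gene's start (RefSeq, GRCm38.p6, chr6:145865371-145865670, minus strand), and all 300 bases were under the f/f peak and 0 under a KO peak. Capitals mark, in this and the promoters below, the E-box CACGTG, its variants CACGCG and CACGTT, the D-box words TTATGTAA and TTACGTAA and the core word AGGTCA of ROR and REV-ERB elements, read on both strands. None of these matches overlapped another.
Bhlhe41: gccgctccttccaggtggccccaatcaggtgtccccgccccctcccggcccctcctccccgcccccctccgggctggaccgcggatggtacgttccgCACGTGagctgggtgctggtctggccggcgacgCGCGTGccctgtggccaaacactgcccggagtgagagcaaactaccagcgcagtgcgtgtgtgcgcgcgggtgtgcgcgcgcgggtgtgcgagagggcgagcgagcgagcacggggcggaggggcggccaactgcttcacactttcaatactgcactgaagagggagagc
It holds 1 E-box and 1 CACGCG variant. E-boxes are the elements to which BHLHE41 and BHLHE40 themselves bind.

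Bhlhe40 (chromosome 6, 108660629 to 108666925), the paralogue of Bhlhe41, had peaks in both libraries and more covered bases in KO. The window held no other protein-coding gene and was covered over 12425 bases in KO (9 peaks) and 10355 in f/f (6 peaks), that is 11.7% in KO and 9.74% in f/f, a difference of 1.95 points. All 6 f/f peaks were overlapped by a KO peak. A peak over the lower-coordinate end was 3295 bp wide in KO and 2880 bp in f/f, and a peak beyond the upper end 1321 bp in KO and 1365 bp in f/f. The remaining 3 KO peaks were distal, 733, 485 and 814 bp wide, with -log10 p values of 8.17, 4.58 and 9.00, all below the KO median of 9.41. A distal region above the upper end (28.1 kb away in KO and 28.3 kb in f/f) was a call above the median of each list, 1556 bp wide in KO and 1279 bp in f/f. Over the gene with 10 kb on both sides the coverage was 17.6% in KO and 16.1% in f/f, and from 50 to 100 kb it was 8.03% in KO and 4.19% in f/f. The sign was opposite to that of Bhlhe41 among all peaks, but not at a stricter peak strength. Both windows had more coverage in KO with a -log10 q minimum of 5 (3.56 points for Bhlhe40 and 0.61 for Bhlhe41). So they did among the strongest 20000 peaks (0.97 and 0.61). Both had less in KO among peaks of at least 3-fold enrichment (-3.12 and -1.09). In all these settings the KO coverage of the Bhlhe41 window was the peak near Rassf8 alone, and none lay at Bhlhe41.

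**Figure D2:**
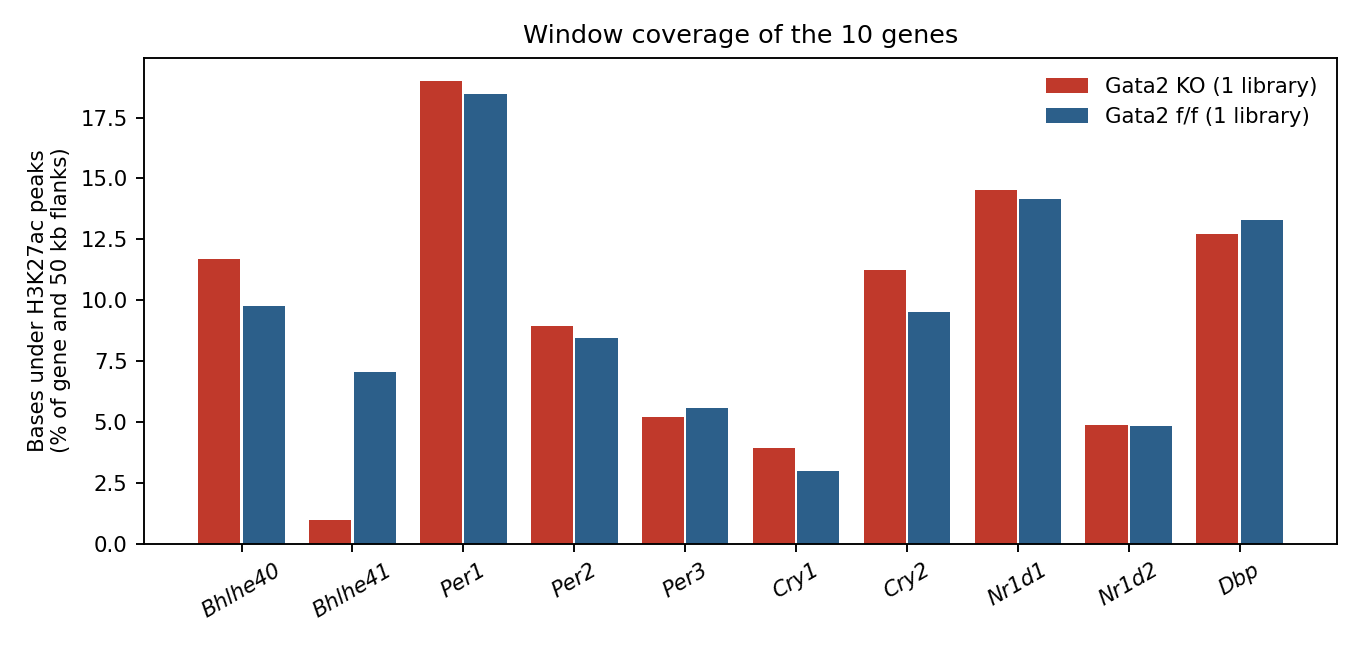
Percent of bases under H3K27ac peaks in the window of each of the 10 genes, with the KO library left of the f/f library and no error bars since each bar is 1 library. Bhlhe41 has 0.976% in KO and 7.04% in f/f, and the other 9 pairs differ by 0.05 to 1.95 points.

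Apart from Bhlhe41, all 9 genes had a gene-end peak in both libraries, which held for 47.6% of all protein-coding genes, and 0 of the 10 were marked in KO alone, against 1.60% of all genes. None of these 9 was past a ratio of 0.5 or 2, and 3.20% of all genes had at least 2 times the coverage in KO. Without genes at chromosome starts where 1 list had no peak yet, these shares were 48.6%, 1.21% and 2.66%. Coverage was higher in KO for 7 of the 10 genes, against 44.8% of all genes, and lower for 3, against 34.2%. All 10 windows held peaks, whereas all genes include those with equal coverage, such as windows without peaks, so these shares have an unlike base. The median difference was 0.44 points over the 10 genes and 0 over all protein-coding genes. Peaks covered 112034 bases of the 10 windows in KO (75 peaks, 8.96%) and 112100 in f/f (71 peaks, 8.96%). This near-equal total includes Bhlhe41, with 1046 bases in KO and 7548 in f/f, so the other 9 genes together had more in KO. The whole list also covered more in KO, 48.6 Mb against 46.3 Mb in f/f. The order of the 9 genes by coverage was the same in both libraries, from Per1 and Nr1d1 at the top to Nr1d2 and Cry1 at the bottom. With 1 library per genotype there is no spread against which neighbours in that order can be told apart.

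The Per genes encode the PERIOD proteins, which carry CRY proteins into the repressing complex. Per1 (chromosome 11, 69095108 to 69109965) had the highest coverage of the set, 19.02% in KO and 18.48% in f/f, in a window with 7 other protein-coding genes. A single KO peak of 5442 bp (69094526 to 69099967) lay over the first part of the gene, where f/f had 2 peaks of 713 bp (69095224 to 69095936) and 2209 bp (69098447 to 69100655). At the gene's 3' end f/f had a peak of 1740 bp (69109582 to 69111321, -log10 p 4.85) that no KO peak overlapped. Peaks at Aurkb, Borcs6, Tmem107, Vamp2 and Hes7 made up 7 of the 10 KO peaks and 6 of the 12 f/f peaks, so that much of this coverage belongs to neighbours' ends.

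Per2 (chromosome 1, 91415977 to 91459351) was covered at 8.95% in KO and 8.42% in f/f. Its broad peak at the upper-coordinate end was 4039 bp wide in KO (91455749 to 91459787) and 3998 bp in f/f (91455929 to 91459926), and an intragenic peak 2152 bp in KO and 2214 bp in f/f. All 6 f/f peaks of the window had a KO peak over them. KO had 2 more, of 683 and 408 bp, with -log10 p values of 3.76 and 3.13.

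Per3 (chromosome 4, 150997018 to 151044707, minus strand) was covered at 5.18% in KO and 5.59% in f/f. Its promoter peak was 1439 bp wide in KO and 1235 bp in f/f, and an intragenic peak towards the 3' end 2085 bp in KO and 2378 bp in f/f. The largest narrowing among the shared regions of all windows was here, at the edge of the window within Camta1, where 562 bp were covered in KO and 1971 bp in f/f.

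The Cry genes encode the cryptochromes, the main repressors of CLOCK and BMAL1. Cry1 (chromosome 10, 85131700 to 85185054, minus strand) was covered at 3.93% in KO and 2.97% in f/f, a ratio of 1.32, the highest of the set. The promoter peak was 1816 bp wide in KO and 1577 bp in f/f, and a distal peak 9.09 kb upstream in KO and 9.26 kb upstream in f/f was 829 bp wide in KO and 430 bp in f/f. All 4 f/f peaks were overlapped, and KO had 1 more, of 676 bp (-log10 p 5.89). Cry2 (chromosome 2, 92403646 to 92434085, minus strand) was covered at 11.2% in KO and 9.50% in f/f. Its promoter peaks were alike, 1593 bp in KO and 1601 bp in f/f. The difference of 1.74 points came from elsewhere. A KO peak of 1616 bp inside the gene had no f/f peak over it and was the weakest of the KO peaks of the window (-log10 p 2.98). A distal region upstream (92446290 to 92447836) had 1547 bp in KO and 501 bp in f/f, the largest widening among the shared regions of all windows.

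Nr1d1 and Nr1d2 encode the haem-binding nuclear receptors REV-ERB alpha and REV-ERB beta. Nr1d1 (chromosome 11, 98767932 to 98775377, minus strand) was covered at 14.5% in KO and 14.2% in f/f. The broad promoter peak was 3870 bp wide in KO (98773528 to 98777397) and 3154 bp in f/f (98773395 to 98776548). Thra, the thyroid hormone receptor gene that overlaps the 3' end of Nr1d1, had a peak at its other end of 1643 bp in KO and 2190 bp in f/f. Nr1d2 (chromosome 14, 18204056 to 18239106, minus strand) was covered at 4.88% in KO and 4.84% in f/f, the smallest difference of the set, and all 6 of its peaks in each library were overlapped. Its promoter peak was 1857 bp wide in KO and 1957 bp in f/f. An intragenic peak was 1323 bp wide in KO and 606 bp in f/f, and a peak upstream 581 bp in KO and 1324 bp in f/f, so that near-equal totals held differences in single regions.

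Dbp (chromosome 7, 45705100 to 45710203, plus strand), which encodes a PAR bZIP activator under direct E-box control, had much the same total coverage in both libraries but no KO peak over its promoter. The window was covered at 12.7% in KO and 13.3% in f/f. In f/f 1 peak of 4501 bp (45704224 to 45708724, -log10 p 36.7) ran from before the gene into its body. In KO the same stretch held a peak of 488 bp (45704207 to 45704694, -log10 p 7.15) and a peak of 2298 bp (45706352 to 45708649, -log10 p 23.2), with a gap of 1657 bp between them. That gap holds the gene's start. The KO gene-end call at Dbp rests on the peak of 488 bp, which also overlaps an end of the neighbour Car11.

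**Figure D3:**
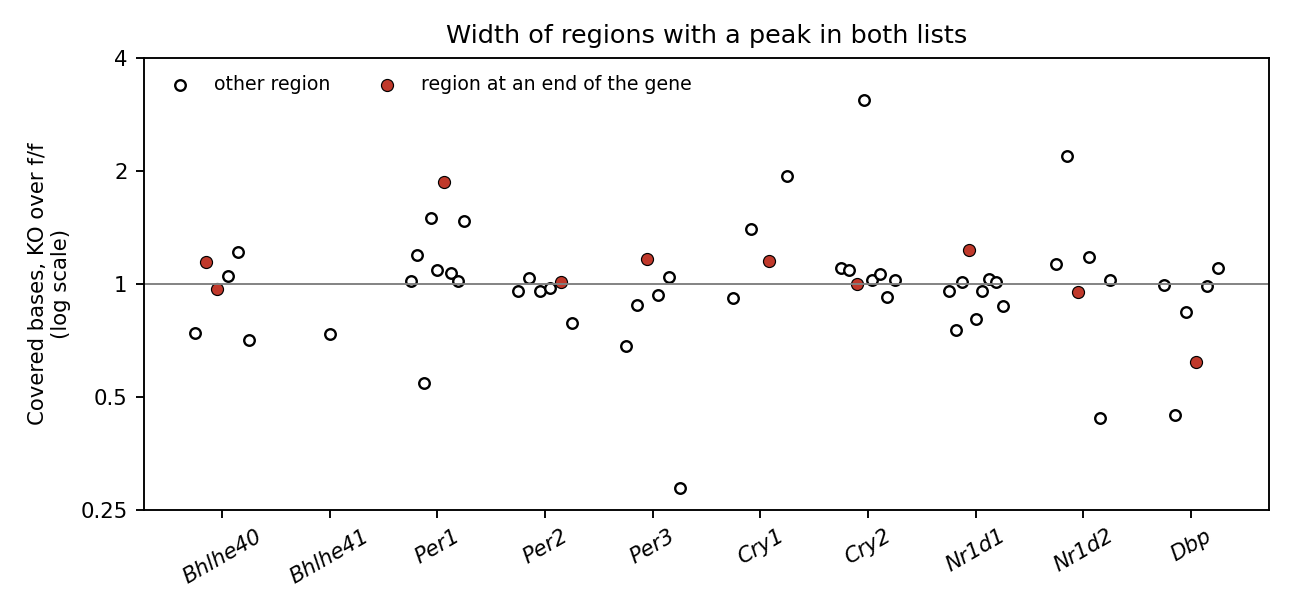
Bases covered in KO over bases covered in f/f, on a log scale, for each of the 61 regions of the 10 windows that held a peak in both lists, ordered by position within each gene. Red points are regions at an end of the gene itself, and lie between 0.619 (Dbp) and 1.86 (Per1), and the other regions between 0.285 and 3.09.

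Peaks over promoters were then read across the set. A promoter window of 300 bases was found in the RefSeq table for 8 of the 10 genes, with 2 windows for Per1, and for neither Bhlhe40 nor Per2. All 9 windows were touched by an f/f peak, and 7 by a KO peak. The 2 touched in f/f and not in KO were those of Bhlhe41 and Dbp, and of all 32851 promoter windows 2.27% were touched in f/f and not in KO. None was touched in KO and not in f/f, against 1.88% of all windows. The f/f peak at Dbp lay above its list's median -log10 p and that at Bhlhe41 below. Of all promoter windows, 36.8% were touched in f/f, 36.4% in KO, and 34.5% in both. The second Per1 window was covered over 66 bases in KO and all 300 in f/f, and the other 6 windows touched in both lists were covered in full in each.

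The Dbp promoter (chr7:45704997-45705296, plus strand) is shown as the other window that was under a peak in f/f and not in KO. Those of Per1 (chr11:69098699-69098998, plus strand) and Cry1 (chr10:85185005-85185304, minus strand) are shown as windows with an E-box that were under a peak in both libraries. That of Per3 (chr4:151044616-151044915, minus strand) is shown for its D-boxes, the element that DBP binds. All are RefSeq sequence of GRCm38.p6, with capitals as above.
Dbp: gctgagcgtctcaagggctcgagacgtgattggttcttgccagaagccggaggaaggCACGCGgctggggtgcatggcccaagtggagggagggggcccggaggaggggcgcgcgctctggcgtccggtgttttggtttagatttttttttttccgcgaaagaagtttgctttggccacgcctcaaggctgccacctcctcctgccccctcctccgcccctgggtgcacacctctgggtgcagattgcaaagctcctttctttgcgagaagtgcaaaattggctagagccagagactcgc
Per1: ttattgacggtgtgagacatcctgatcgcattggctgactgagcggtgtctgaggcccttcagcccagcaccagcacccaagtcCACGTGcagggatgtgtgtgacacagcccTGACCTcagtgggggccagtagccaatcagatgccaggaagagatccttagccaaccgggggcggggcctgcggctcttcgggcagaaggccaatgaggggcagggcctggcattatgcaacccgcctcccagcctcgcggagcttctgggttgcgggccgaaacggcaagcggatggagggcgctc
Cry1: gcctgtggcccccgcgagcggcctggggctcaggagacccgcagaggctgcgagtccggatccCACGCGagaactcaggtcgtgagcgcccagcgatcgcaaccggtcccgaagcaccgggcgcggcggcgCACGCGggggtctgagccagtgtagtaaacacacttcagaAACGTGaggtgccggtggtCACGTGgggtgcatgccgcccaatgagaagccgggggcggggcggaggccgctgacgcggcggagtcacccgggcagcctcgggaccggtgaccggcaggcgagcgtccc
Per3: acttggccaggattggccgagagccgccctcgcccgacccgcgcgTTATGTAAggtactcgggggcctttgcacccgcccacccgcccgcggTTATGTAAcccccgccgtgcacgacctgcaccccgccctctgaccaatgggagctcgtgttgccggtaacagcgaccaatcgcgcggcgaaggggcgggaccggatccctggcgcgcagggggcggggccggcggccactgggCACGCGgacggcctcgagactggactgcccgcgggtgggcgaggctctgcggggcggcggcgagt
The Per3 window holds 2 D-boxes, which 1.06% of all promoter windows hold at least once, and both lay under peaks in both libraries. The E-box CACGTG stood in 3 of the 9 windows, those of Bhlhe41, Cry1 and the first of Per1, and in 7.15% of all windows. CACGCG occurs in 9.27% of all windows, CACGTT in 4.68% and AGGTCA in 16.3%. The GATA words AGATAA and AGATAG, along with TGATAA and TGATAG, which 29.8% of all windows hold on either strand, were in none of the 9. That says only that these letters are not there. The 9 windows had a GC content of 56.3 to 73.3%, against a median of 52.7% over all promoter windows. None of the word shares is adjusted for GC content.

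Peak by peak, the 10 windows were shared at about the rate of the lists as a whole. Of the 75 KO peaks, 84.0% (95% Wilson interval 74.1 to 90.6) were overlapped by an f/f peak, against 77.4% of all KO peaks. Of the 71 f/f peaks, 88.7% (79.3 to 94.2) were overlapped by a KO peak, against 83.8% of all f/f peaks. The intervals cover counting error only. All 49 KO peaks at or above the KO median -log10 p were shared, against 95.8% of all such peaks, and 43 of the 44 such f/f peaks, against 97.5%. The exception was an f/f peak of 725 bp at the end of Large2 in the Cry2 window (-log10 p 14.7). The 12 KO peaks without an f/f peak were therefore all weak calls, 10 of them distal or inside the gene away from its ends.

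Among the 61 regions with a peak in both lists, 33 (54.1%) were wider in KO and 28 (45.9%) narrower. Of all 28627 such regions, 47.3% were wider in KO and 52.4% narrower. The median ratio was 1.01 in the 10 windows and 0.991 over all such regions. At Per1 8 of the 9 shared regions were wider in KO, and at Dbp 1 of 6. Distal peaks, over 2000 bp from any protein-coding gene end, numbered 39 in KO and 32 in f/f. Of the 39 in KO, 10 had no f/f peak over them, against 28.6% of all distal KO peaks, and of the 32 in f/f, 2 had no KO peak, against 20.7% of all distal f/f peaks.

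**Figure D4:**
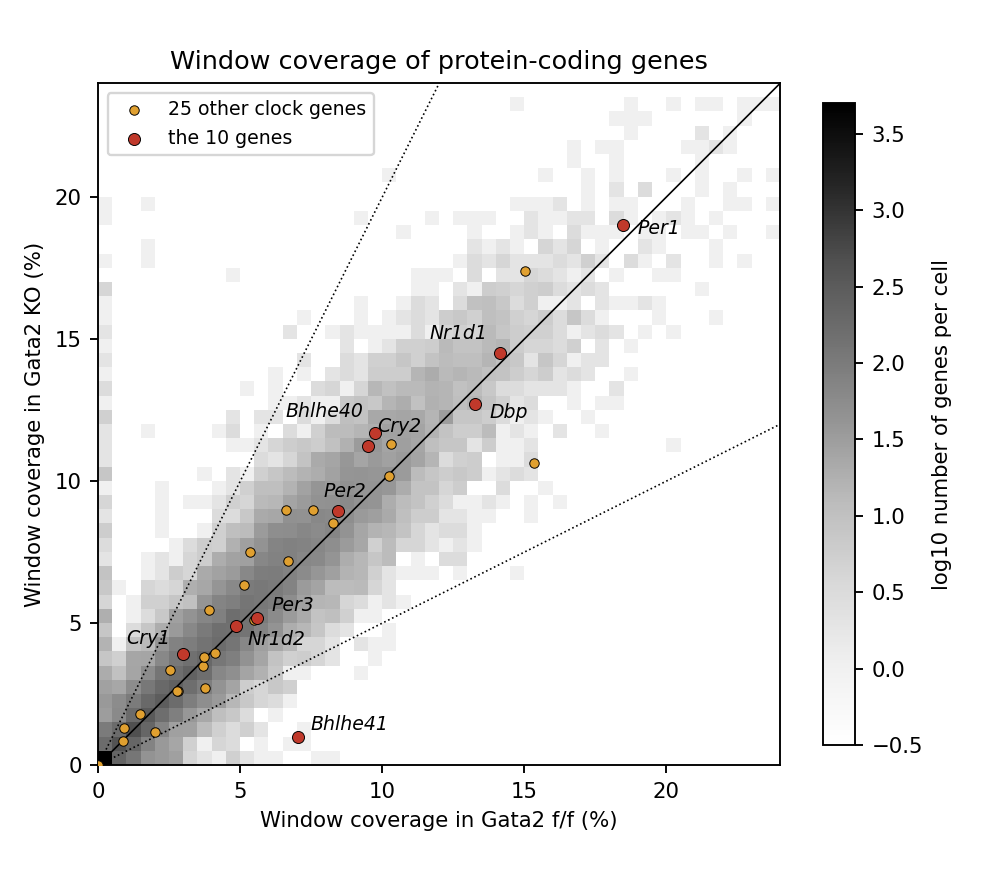
Window coverage in f/f (x axis) and KO (y axis) of 21837 protein-coding genes, in cells of grey by number, with 46 genes beyond the axes. The 10 genes are red, 25 other clock genes are orange, the solid line marks equal coverage and the dotted lines ratios of 0.5 and 2. Bhlhe41 is the only coloured gene with a covered window outside the dotted lines.

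The other arms of the clock were read from a list of 25 genes of activators, ROR receptors, further PAR bZIP factors, kinases and ubiquitin ligase components. Of these 25 genes, 18 had a gene-end peak in both libraries, 0 in 1 library alone and 7 in neither, among them Bmal1 (listed as Arntl) and the other activator gene Npas2. Gene ends miss a promoter inside the annotated gene, and the 2 promoter windows of Bmal1, which lie inside it, were covered over all 300 bases in each library, whereas that of Npas2 was not touched in either. Of 26 promoter windows found for 18 of the 25 genes, 19 were touched in both libraries, 7 in neither and 0 in 1 library only. Among all promoter windows 34.5% were touched in both, 2.27% in f/f only and 1.88% in KO only. Coverage was lower in KO for 10 of the 25 genes and higher for 13, with a median difference of 0.09 points, and 0 were past a ratio of 0.5 or 2. Among all genes 34.2% were lower and 44.8% higher, a base that includes windows without peaks. The ratio of 0.5 was met by 2.29% of all genes and that of 2 by 3.20%. Tef, a PAR bZIP relative of Dbp, had the largest difference, with 10.6% in KO and 15.3% in f/f. Hlf, the remaining PAR bZIP gene, had no covered base in its window in either library. Nfil3, whose product competes with DBP for D-boxes, had 6.35% in KO and 5.13% in f/f.

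Genes of kinases and other clock regulators followed. Csnk1e, a casein kinase 1 gene, had 8.98% in KO and 6.61% in f/f. Usp2, a deubiquitinase gene, had 17.4% in KO and 15.0% in f/f, and Gsk3b, a kinase gene, 2.73% in KO and 3.77% in f/f. Tipin, which encodes a partner of TIMELESS, had 5.47% in KO and 3.88% in f/f, and the kinase gene Sik1 8.98% in KO and 7.56% in f/f.

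The genes whose 2 coverage values lay nearest to those of Bhlhe41 were Zbtb16, Fads3, Dnajc30, Zfp322a and Tgs1, at distances of 0.373, 0.528, 1.16, 1.29 and 1.33 percentage points over the 2 libraries. Zbtb16, which encodes the transcription factor PLZF, was covered at 0.925% in KO and 6.67% in f/f. Fads3, of the fatty acid desaturase family, had 1785 covered bases in KO and 8503 in f/f. Both were marked at a gene end in f/f alone, as was Tgs1, which lies in the stretch at the start of chromosome 4 that held no KO peak. Dnajc30 and Zfp322a had a gene-end peak in both lists. Of all genes 1.83% were marked in f/f alone. As these 5 genes were picked for coverage like that of Bhlhe41, nothing is read from their marking.

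The direction of small differences depended on which peaks were counted. Cry1 and Cry2 had more coverage in KO, and Dbp less, in all 8 alternative settings of peak strength, flank and neighbours. The ranges were 0.52 to 1.29 points for Cry1, 0.26 to 3.47 for Cry2 and -6.60 to -0.08 for Dbp. Per2 and Per3 changed sign in 4 of the 8 settings, Nr1d2 in 3, Nr1d1 and Bhlhe41 in 2, and Bhlhe40 and Per1 in 1. Among peaks of at least 3-fold enrichment, 8 of the 10 genes had less coverage in KO and 2 had more. Of all protein-coding genes 50% had less and 26.7% had more, a base that includes genes with equal coverage. Among all peaks 3 of the 10 had less. With that minimum 5 of the 10 had a gene-end peak in both lists, against 40.4% of all genes. Marking in f/f alone was then found for 0 of the 10, against 3.86% of all genes, and likewise for 0 with the -log10 q minimum of 5, against 1.94%, and for 0 among the strongest 20000 peaks, against 1.69%. A KO coverage at or under 0.5 times that of f/f held for 0 of the 10 with the -log10 q minimum, against 3.51% of all genes, and for 0 among the strongest 20000 peaks, against 2.83%. The median fold of all peaks was 3.09 in KO and 3.51 in f/f. At Dbp the difference was -6.60 points over the gene with 10 kb on both sides, with 27.6% in KO and 34.2% in f/f, and -0.58 points in the window of 50 kb flanks.

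**Figure D5:**
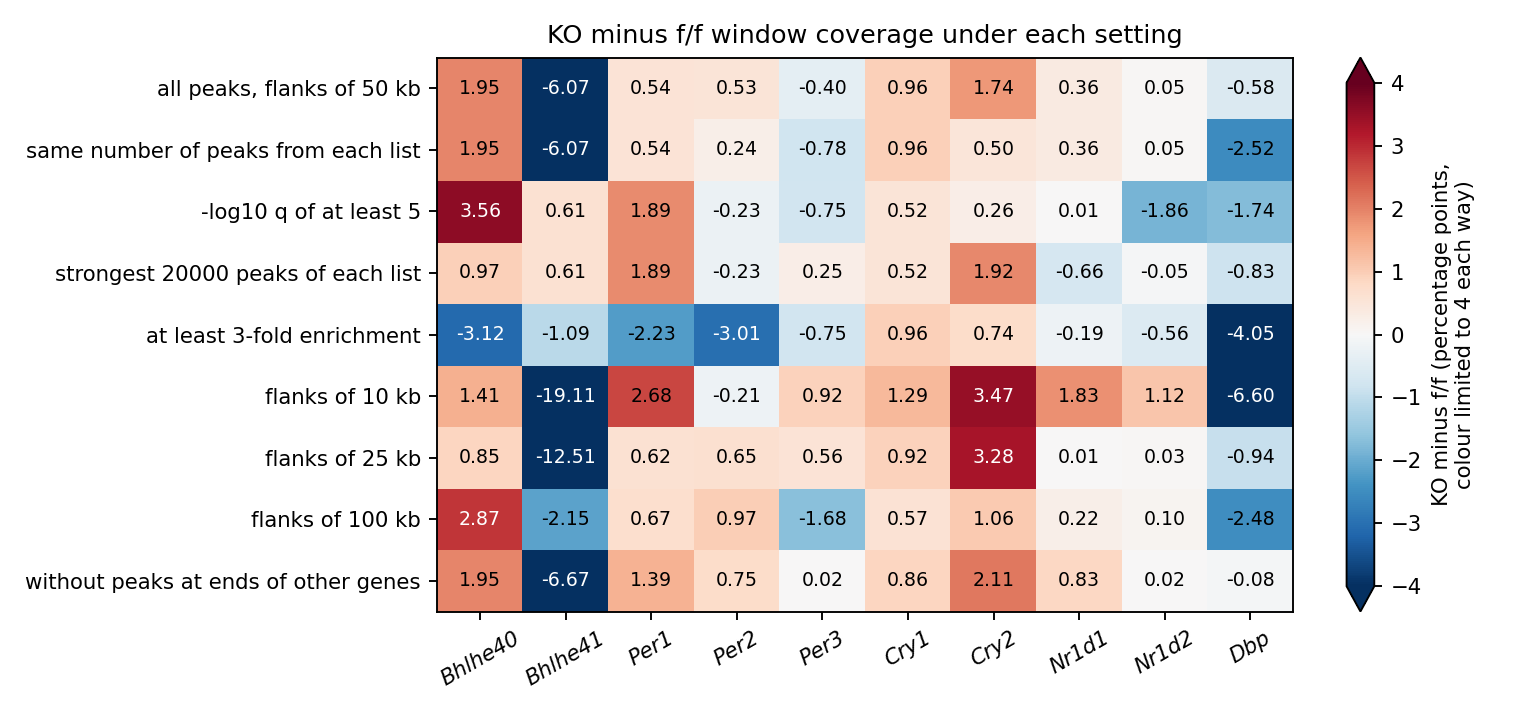
KO minus f/f window coverage in percentage points for each of the 10 genes (columns) under the setting used and 8 alternatives (rows), red where KO was higher and blue where it was lower. Cry1 and Cry2 are above 0 and Dbp is below 0 in every row, and Bhlhe41 is at 0.61 in the rows of strong peaks (-log10 q and strongest 20000) and between -19.1 and -1.09 in the others.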

How the data were processed

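H3K27ac ChIP-seq peak lists of 2 libraries were used, 1 of Gata2 KO and 1 of Gata2 f/f cells, grouped by the genotype in the labels. Per the submitters' processing notes, reads were aligned to mm10 and the tools were BWA, SAMtools and MACS2, and the deposited lists are in broad peak format. The sources used here give no versions, options, control library or read numbers. The authors deposited for each peak a score, not used here, a fold enrichment (a ratio to the caller's background), and its p-value and q-value as -log10. Deeper or better enriched libraries give more calls and wider ones, so covered bases depend on the calling too.

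Genes and promoters came from RefSeq tables of GRCm38.p6, the build of mm10. The gene table gives no strand, and strands were taken from the promoter table. Only peaks of chromosomes 1 to 19, X and Y entered, overlap meant at least 1 bp, and distal peaks lay over 2000 bp from any protein-coding gene end. Python 3.11.15 with numpy 2.4.6, pandas 2.3.3 and scipy 1.17.1 was used, and the coverage functions were tested on simulated data. No significance test was made, with 1 library per genotype. The members and lists were chosen with earlier results of these data known. All 10 genes are named. Of the other clock genes the 8 with the largest difference are named, except 1 that is not reported here, besides Bmal1, Npas2 and Hlf, chosen after their values were seen. The 5 genes nearest to Bhlhe41 in coverage skip predicted and receptor-family genes and overlapping windows. A search of the peaks' own sequence needs a genome and was not made.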

Additional observations from a re-analysis of the deposited data

How the results depend on the processing

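Judging gene ends over 500 or 2000 bp, judging absence over 1000 bp and equal list lengths changed no count of marked genes, and a stricter or looser overlap left 84.0% of the KO peaks of the windows and 87.3 to 88.7% of the f/f peaks shared. Restricting peak strength changed the counts of marked genes. A gene-end peak in both lists was found for 7 of the 10 genes with the strongest 20000 peaks, where the share of all genes was not taken. Marking in f/f alone was found for 0 of the 10 genes with a -log10 q minimum of 5, with the strongest 20000 peaks and with a 3-fold minimum. With that 3-fold minimum 5 genes had a call at a gene end in both lists, where 40.4% of all genes did. Window coverage was then higher in KO for 2 (26.7% of all genes) and lower for 8 (50%), where all genes include those with equal coverage. The number at or under 0.5 times the f/f coverage was 0 under the q minimum and for the strongest 20000. The Bhlhe41 difference was 0.61 points in both of these settings, since no f/f peak of its window remains and the KO peak near Rassf8 does. It was -1.09 under the 3-fold minimum, -19.1 for flanks of 10 kb, -12.5 for 25 kb and -2.15 for 100 kb, the f/f peaks lying close to the gene. For the other changes the cause was not tested. No paired analysis was possible because there is 1 library per genotype. Unknown read depth limits every absence of a peak to an absence of a call.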
